A study of Homo sapiens with 10 samples.

Results

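The distal long arm of human chromosome 10 was followed in RNA-Seq data from clonal endothelial cells as the genes that start at or beyond 75910943 on the hg19 build, from *ADK* to *MTG1*, over 59.3 Mb. Of the 544 gene symbols listed there, 268 reached 1 cpm or more (FPKM times length in kb) in 2 or more of the 10 libraries. The interferon-induced *IFIT* genes and symbols that start with LINC, SNOR or SCARNA, 7 symbols in all, were left out. This gave 261 genes out of the 13333 tested in the whole series. Noncoding RNAs with other names, such as *OLMALINC*, stayed in. Just inside the filter were *PDZD7* and *ARMS2*, with 1.14 and 1.15 cpm in their second-highest library. *SLIT1* and *CFAP58-DT* stood just outside it, with 0.923 and 0.921 cpm. The cells were EA.hy926, an established line made by fusing a human umbilical vein endothelial cell with the A549 lung carcinoma line. CRISPR/Cas9 with paired guide RNAs (gRNAs) had removed, in homozygous clones, the promoter of either *VEGFA-LNC* or *VEGFC-LNC*, long noncoding RNAs near the growth factor genes *VEGFA* and *VEGFC*. The libraries came from 3 *VEGFA-LNC* deletion clones, 2 *VEGFA-LNC* controls, 3 *VEGFC-LNC* deletion clones and 2 *VEGFC-LNC* controls. The controls had received the gRNAs without Cas9 and had passed through the same clonal selection and each clone is a line of its own. The stretch was proposed because its genes were higher in the *VEGFA-LNC* deletion clones than in their controls. For that comparison, and for any that uses the same libraries, values and counts of calls are therefore given as a description. Only in the *VEGFC-LNC* comparison are they read as a test. Its calls still rest on all 10 libraries, since the fit shares its estimate of the spread over the 4 groups.

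Genes next to each other on a chromosome arm need not share a function, but they share its copies. The distal long arm of chromosome 10 carries genes of very different tasks. They include *MXI1*, an antagonist of MYC, the ubiquitin ligase gene *TRIM8*, the NF-κB subunit gene *NFKB2*, the lipid desaturase gene *SCD*, the motor protein gene *KIF11* and the endothelial matrix gene *MMRN2*. Copy number was not measured in these libraries.

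The 250 bases before the transcript start are shown for 4 genes on which the results turn, read from GRCh37 on the plus strand. *MXI1* (chr10:111969739-111969988) and *TRIM8* (chr10:104404002-104404251) were among the genes highest in the *VEGFA-LNC* deletion clones, *TSPAN14* (chr10:82218891-82219140) was the first gene of the stretch called there, and *ADIRF* (chr10:88727938-88728187) was the gene called in the *VEGFC-LNC* deletion clones. Capitals mark the GC box letters GGGCGG on either strand, the only match found among 5 motifs searched on both strands (the E-box CACGTG, the GC box GGGCGG, the CCAAT box, the TATA box as TATAAA and the AP-1 site as TGACTCA), none of which overlaps another here.
MXI1: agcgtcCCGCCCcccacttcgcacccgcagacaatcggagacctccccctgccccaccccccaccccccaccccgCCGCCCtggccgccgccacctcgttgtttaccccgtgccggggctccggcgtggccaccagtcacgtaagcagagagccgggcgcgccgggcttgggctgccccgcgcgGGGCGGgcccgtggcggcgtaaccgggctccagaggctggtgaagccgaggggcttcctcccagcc
TRIM8: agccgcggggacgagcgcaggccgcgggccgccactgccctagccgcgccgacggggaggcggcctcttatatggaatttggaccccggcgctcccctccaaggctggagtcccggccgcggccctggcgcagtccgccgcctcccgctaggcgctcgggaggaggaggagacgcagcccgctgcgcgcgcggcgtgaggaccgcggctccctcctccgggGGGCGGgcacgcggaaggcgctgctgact
TSPAN14: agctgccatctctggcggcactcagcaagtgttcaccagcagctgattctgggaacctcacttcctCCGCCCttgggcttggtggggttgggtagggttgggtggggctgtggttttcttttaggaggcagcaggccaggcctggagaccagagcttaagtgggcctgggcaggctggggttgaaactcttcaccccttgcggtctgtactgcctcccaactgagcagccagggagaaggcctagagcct
ADIRF: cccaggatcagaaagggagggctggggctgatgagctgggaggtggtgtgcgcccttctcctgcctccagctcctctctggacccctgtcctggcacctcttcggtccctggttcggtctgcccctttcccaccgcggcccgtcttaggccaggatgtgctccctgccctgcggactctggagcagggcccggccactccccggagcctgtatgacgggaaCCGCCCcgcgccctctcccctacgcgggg
The GC box letters occurred in the same window of 144 of the 261 genes (55.2%) and of 58.6% of all tested genes. CACGTG occurred in 8.43% against 7.8%, CCAAT in 36.4% against 33.2%, TATAAA in 4.21% against 6.62% and TGACTCA in 1.53% against 2.83%. The median GC content was 62.4% both in the stretch and in all tested genes. In the 15 named genes called higher upon *VEGFA-LNC* deletion it was 70.4%, and CCAAT occurred in 2 of them (13.3%).

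Total RNA depleted of ribosomal RNA was sequenced, and the libraries held between about 6743972 and 24197611 reads assigned to transcripts, as recovered from the FPKM values. FPKM scales the reads of a transcript to its length and to the size of the library. Clones spread more than controls, with a median SD on the log2 scale of 0.298 and 0.223 over the genes of the stretch in the *VEGFA-LNC* and *VEGFC-LNC* deletion clones, and of 0.0636 and 0.0624 in their controls. Summed FPKM of 10 endothelial markers ranged from 391 to 1090 across the libraries, with *CLDN5* under 1 FPKM in each. Of 6 epithelial markers, *CDH1*, *EPCAM* and *KRT19* were under 1 FPKM in every library, while the sum, led by *KRT7*, ranged from 439 to 1310. All 5 leukocyte and all 5 fibroblast and mural markers were under 1 FPKM. The transcripts of the 2 long noncoding RNAs were not analysed here.

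The genes of distal chromosome 10 stood higher in the 3 *VEGFA-LNC* deletion clones than in any other library. For each library the relative level was taken, which is the median over genes of log2(FPKM + 0.1) less each gene's mean over the libraries, minus the same median over genes of other chromosomes. It was 0.29, 0.25 and 0.26 in *VEGFA-LNC* deletion clones 1, 2 and 3. It was -0.11 and -0.12 in their controls, -0.09, -0.12 and -0.14 in the *VEGFC-LNC* deletion clones and -0.12 and -0.11 in the *VEGFC-LNC* controls. The 7 other libraries thus lay within a range narrower than the distance of 0.34 that parted the lowest of the 3 clones from the highest of them. The 3 clones lay as close together as the other libraries did, with an SD of 0.0178 against 0.016. On the 250 tested genes of chromosome 10 before the stretch, the same measure was 0.03, -0.08 and -0.04 in the 3 clones and between -0.01 and 0.05 elsewhere. In bulk RNA, more transcript per cell and more cells with the transcript cannot be told apart.

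**Figure D1:**
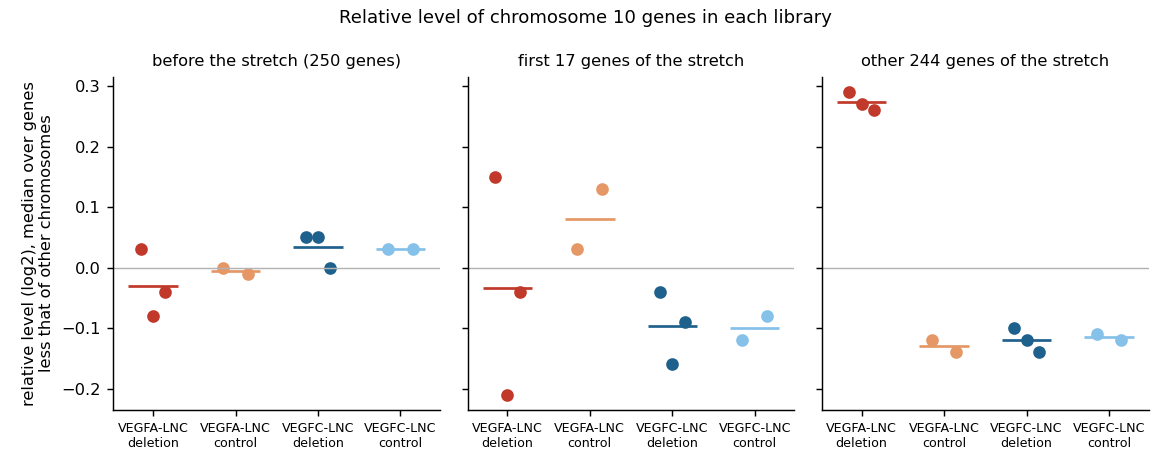
Relative level (log2) in each library of chromosome 10 genes before the stretch, of the first 17 genes of the stretch and of its other 244 genes, by group. Each point is a library and each line a group mean. The *VEGFA-LNC* deletion clones stand apart only in the right panel, at 0.26 to 0.29 against -0.14 to -0.10 in the other libraries.

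The higher level did not begin at the first gene. In consecutive windows of 10 genes, counted from the start of the stretch, the median difference of clones 1, 2 and 3 from their controls, less that of other chromosomes, was 0.06, -0.35 and -0.08 from *ADK* to *POLR3A*. From *RPS24* to *TMEM254* it was 0.39, -0.08 and 0.23. From *ANXA11* to *BMPR1A*, which begin 6.0 to 12.6 Mb into the stretch, it was 0.52, 0.48 and 0.29. The third window was thus the first in which all 3 clones were above 0, but it marked no clean boundary. Windows from *FLJ37201* to *TNKS2*, *FRA10AC1* to *ALDH18A1*, *AVPI1* to *GOT1* and *PLEKHA1* to *PSTK* again had at least 1 clone below 0. The lowest value among them was -0.34, and in the other later windows all 3 clones were above 0. Over the first 17 genes, up to *NUTM2B-AS1* at 5.6 Mb, the medians were 0.21, -0.29 and -0.08, and 5 of the 17 had a log2 FC above 0. Over the other 244 genes they were 0.41, 0.41 and 0.40, and 193 of the 244 (79.1%) were higher. This point of division was chosen after the values were seen.

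The 5 genes on either side of the nominal start had log2 FCs of both signs. *VDAC2*, a channel of the outer mitochondrial membrane, had 84.3, 58.7 and 65.3 FPKM in the clones and 90.5 and 93.9 FPKM in the controls. *KAT6B*, a histone acetyltransferase, had 4.34, 2.67 and 3.5 FPKM against 3.82 and 3.87 FPKM. *ADK*, which phosphorylates adenosine, had 23.0, 14.7 and 17.6 FPKM against 16.4 and 16.3 FPKM. Of these, the clones lay wholly below the controls for *VDAC2*, and on both sides of them for the other genes. *SAMD8*, a sphingolipid enzyme gene, had a log2 FC of -0.02 (SE 0.18), and *COMTD1*, a predicted methyltransferase gene, had one of 0.23 (SE 0.18). Before the start, *NDST2* and *CAMK2G* (-0.05 and -0.20), *PLAU* (0.32), *VCL* (-0.41) and *AP3M1* (-0.10) likewise went either way. The log2 FCs of these 10 genes lay between -0.43 and 0.32.

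**Figure D2:**
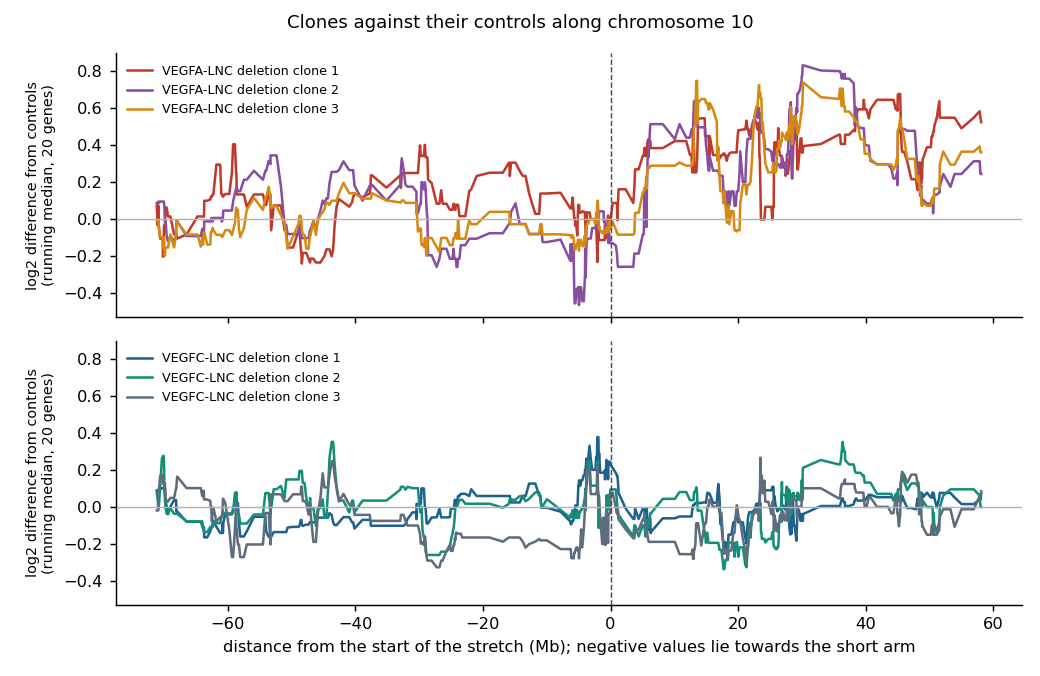
Running median over 20 genes of the log2 difference of each clone from the mean of its controls, less that of other chromosomes, along chromosome 10. The horizontal axis gives the median position of the 20 genes in Mb from the start of the stretch, which the broken line marks. In windows of 10 genes, the *VEGFA-LNC* deletion clones (upper panel) are first all above 0 about 6 Mb past the line (*ANXA11* to *BMPR1A*, 0.29 to 0.52). In the window before it (*RPS24* to *TMEM254*), clone 1 is at 0.39, clone 2 at -0.08 and clone 3 at 0.23. Some later windows of 10 genes again have a clone below 0. The *VEGFC-LNC* deletion clones (lower panel) stay between -0.27 and 0.18 in the windows of 20 genes of the stretch. In its windows of 10 genes they range more widely. From *PAPSS2* to *PANK1* they are at 0.30, 0.36 and 0.62, and from *FLJ37201* to *TNKS2* at -0.22, -0.42 and -0.42.

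Past that point the medians of windows varied along the arm and between clones. Of 13 windows of 20 genes, the lowest of the 3 clones was at least 0.2 in 9, compared with 5 of 631 windows on other chromosomes (0.792%) and 0 of 12 on chromosome 10 before the stretch. Windows overlap in no gene, but neighbouring genes are not independent. The 3 clones were nearest each other from *SMC3* to *PDZD8* (0.59, 0.51 and 0.52). From *TCTN3* to *PI4K2A* they had 0.52, 0.60 and 0.68. From *PCGF6* to *DUSP5*, a window that ends 36.3 Mb into the stretch, clone 1 had 0.36 and clones 2 and 3 had 0.77 and 0.61. From *EDRF1* to *MTG1*, the last window, clone 1 was the highest, with 0.53 against 0.20 and 0.33. From *FGFBP3* to *ALDH18A1*, the values were 0.36, 0.07 and -0.06, and from *PLEKHA1* to *CTBP2* they were 0.22, 0.11 and 0.07. Before the stretch, windows of single *VEGFA-LNC* deletion clones ranged from -0.22 to 0.31. Whether the shift itself differed in height along the arm was not tested.

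Gene by gene, 198 of the 261 genes (75.9%) had a log2 FC above 0 upon *VEGFA-LNC* deletion, compared with 43.6% of the 12815 tested genes on other chromosomes. The median log2 FC was 0.32 against -0.06, a distance of 0.38 or 1.31-fold. The quartiles were 0.01 and 0.59 in the stretch and -0.34 and 0.20 elsewhere, so that the whole distribution lay further to the right while its interquartile range was much alike (0.58 and 0.53). All 3 clones lay above both controls in 121 genes (46.4%), where the share over all tested genes was 15.3%, and below both in 21 genes (8.05%), where it was 23.7%. Called higher, with an FDR under 0.05 in limma and an FC of at least 1.5, were 16 genes (6.13%, against 0.735% of all tested genes). Called lower were 0 genes (against 2.02%). At an unadjusted limma p under 0.05, 9 were lower and 86 higher, where 1601 and 889 of the 12815 genes elsewhere were. Since this comparison proposed the stretch, these counts describe it and test nothing. The number called depended on single libraries. It was 54 without clone 1, 2 without clone 2 or without clone 3, 0 without either control, 1 without either *VEGFC-LNC* control and 6 with the replicate number as a block.

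Among genes that passed the filter, the distance from other chromosomes was found at every level of expression. It was 0.38 among the 28 genes with a mean under 1 FPKM, 0.43 among the 63 with 1 to 5 FPKM, 0.42 among the 117 with 5 to 20 FPKM and 0.26 among the 53 with at least 20 FPKM, each against genes of the same level elsewhere. In single clones, 31.8%, 36.4% and 32.6% of the genes were at least 1.5-fold above the controls, after centring on other chromosomes, compared with 12.9%, 15.8% and 12% of genes elsewhere. All 3 clones passed 1.5-fold in 26 genes (9.96% against 2.08% elsewhere). The median range between the 3 clones was 0.55 in the stretch and 0.54 on other chromosomes.

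**Figure D3:**
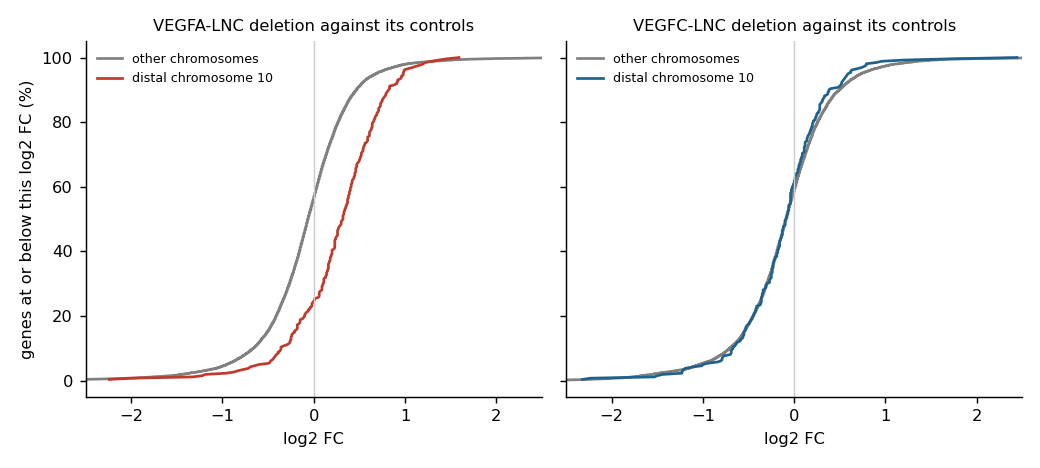
Share of genes (%) at or below each log2 FC, for distal chromosome 10 and for other chromosomes, upon *VEGFA-LNC* deletion (left) and upon *VEGFC-LNC* deletion (right). The horizontal axis ends at 2.5 either way. The curve of the stretch lies to the right of the other on the left side (medians 0.32 and -0.06) and along it on the right side (medians -0.08 and -0.09).

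The genes highest in the *VEGFA-LNC* deletion clones were spread from *NUTM2B* at 5.6 Mb to *TACC2* at 48.0 Mb into the stretch. *MXI1*, which competes with MYC for its partner MAX, lies on the plus strand from 111969989 to 112047123 and had 6.88, 11.4 and 10.8 FPKM in the clones. It had 3.05 and 3.09 FPKM in their controls, which gives a log2 FC of 1.59 (SE 0.27). The clones and controls did not overlap, and clone 1 was the lowest of the clones. In the *VEGFC-LNC* set it had 3.64, 6.09 and 4.68 FPKM in the clones and 2.88 and 3.51 FPKM in the controls. *TRIM8*, a ubiquitin ligase of the tripartite motif family, lies from 104404252 to 104418076 and had 140, 184 and 195 FPKM in the clones. Its controls had 75.0 and 73.9 FPKM, and the log2 FC was 1.20 (SE 0.21). It was the most expressed of the genes called higher. *TSPAN14*, a tetraspanin that helps carry the protease ADAM10 to the cell surface, had 35.1, 46.8 and 38.5 FPKM against 18.2 and 19.4 FPKM (log2 FC 1.08, SE 0.19). It lies from 82219141 to 82282386, 6.3 Mb into the stretch.

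*GRK5*, a kinase of G protein-coupled receptors, had 15.6, 50.7 and 38.7 FPKM against 13.9 and 12.9 FPKM in the controls. Clone 1 stood close to the controls and the other clones far above them. The log2 FC of 1.22 had an SE of 0.43, and the gene was not called. *GRID1*, a glutamate receptor subunit gene, had 2.55, 3.49 and 3.61 FPKM against 1.25 and 1.09 FPKM (log2 FC 1.37, SE 0.21). *TACC2*, a centrosomal protein gene, had 19.3, 33.3 and 24.9 FPKM against 11.7 and 10.6 FPKM (log2 FC 1.17, SE 0.23). Both of these were called higher and did not overlap with their controls. *GSTO2*, a glutathione transferase, had 0.901, 1.52 and 3.43 FPKM against 0.560 and 0.539 FPKM, from 4 to 49 reads a library. *NUTM2B* had 1.88, 4.53 and 4.47 FPKM against 1.49 and 1.5 FPKM. Its near-identical relatives *NUTM2A*, *NUTM2D* and *NUTM2E* had log2 FCs of 1.03, 0.99 and 0.98, close to its own 1.12, and reads shared between the copies leave the value of each uncertain.

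The other genes called higher that are named here had log2 FCs between 0.59 and 0.92 and were close among the clones. *WDR11*, a protein of vesicle capture at the Golgi, had 14.6, 17.1 and 17.1 FPKM against 8.57 and 8.46 FPKM (log2 FC 0.92, SE 0.12). *DOCK1*, an activator of the GTPase RAC1 and the last called gene along the arm at 52.7 Mb, had 13.2, 14.5 and 12.6 FPKM against 7.0 and 7.09 FPKM. *CTBP2*, a transcriptional corepressor, had 25.2, 23.7 and 20.3 FPKM against 13.5 and 13.3 FPKM (log2 FC 0.77, SE 0.13). In each of them every clone exceeded both controls by more than the clones differed among themselves. *MMS19*, which delivers iron-sulphur clusters to DNA repair enzymes, had 23.7, 24.4 and 23.9 FPKM against 15.2 and 16.2 FPKM. *ATE1*, which adds arginine to protein ends, had 13.4, 12.7 and 12.9 FPKM against 8.02 and 7.74 FPKM. *MARVELD1*, *ATAD1*, *CACUL1*, *RGS10* and *ZNF518A* completed the genes named. In the *VEGFC-LNC* clones the called genes had log2 FCs between -0.46 and 0.55, and none of them was called there.

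**Figure D4:**
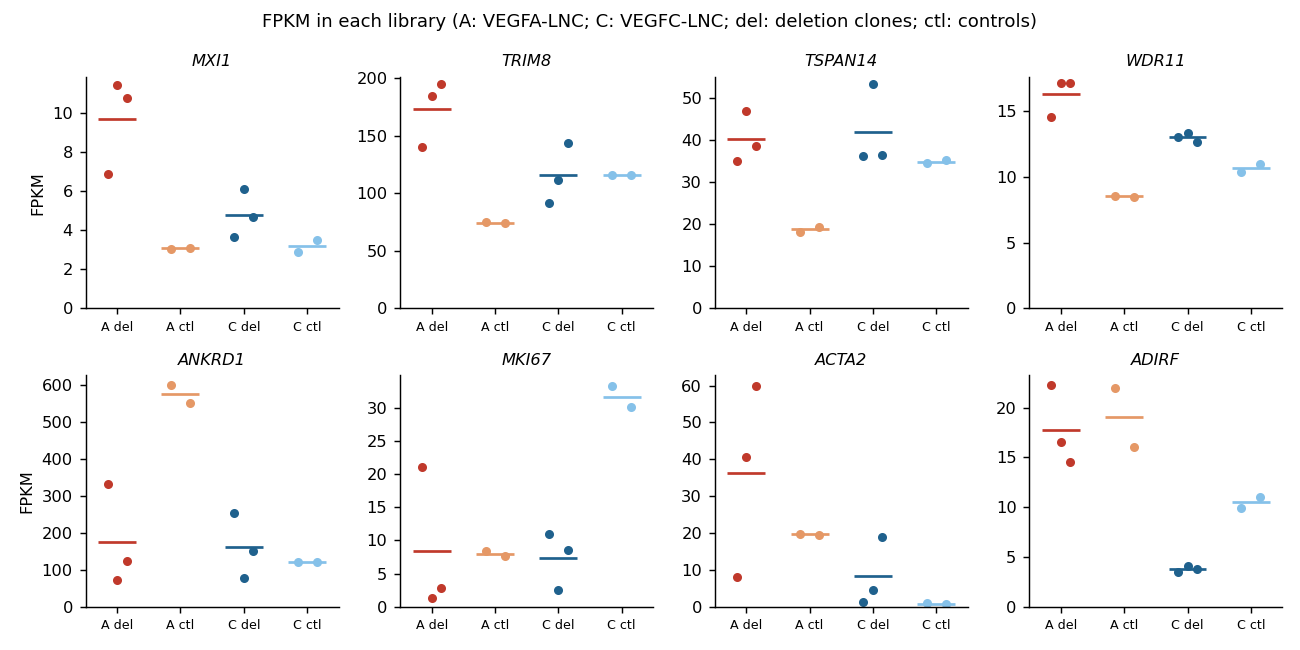
FPKM of 8 genes in each library, with group means as lines. *MXI1*, *TRIM8*, *TSPAN14* and *WDR11* are higher in the *VEGFA-LNC* deletion clones (A del) than in their controls (A ctl), *ANKRD1* is lower, *MKI67* and *ACTA2* spread widely between clones (1.33 to 21.1 FPKM and 8.11 to 59.8 FPKM), and *ADIRF* is lower in the *VEGFC-LNC* deletion clones (C del) than in their controls (C ctl).

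Some genes of the arm went the other way, and they too were spread along it. *ANKRD1*, a muscle ankyrin repeat protein that responds to the YAP coactivator, had the lowest log2 FC of genes with a mean of at least 1 FPKM (-1.99, SE 0.61). It had 332, 73.8 and 123 FPKM in the clones against 600 and 551 FPKM in the controls. *PPP1R3C*, which brings protein phosphatase 1 to glycogen, had 8.01, 7.81 and 7.39 FPKM against 19.2 and 20.01 FPKM (log2 FC -1.33, SE 0.36). All clones lay below both controls in each gene, with the clones of *PPP1R3C* close together and those of *ANKRD1* far apart. *POLR3A*, the largest subunit of RNA polymerase III, had 10.3, 6.64 and 9.43 FPKM against 14.9 and 16.0 FPKM, *PLPP4*, a lipid phosphatase, had a log2 FC of -0.96 and *ENTPD7*, a nucleotide hydrolase, one of -0.71. *ENTPD1*, the surface ATP hydrolase CD39, had 0.094, 1.49 and 0.187 FPKM against 0.909 and 0.968 FPKM. *NFKB2* had 6.59, 13.4 and 22.9 FPKM against 21.2 and 22.0 FPKM. *MKI67*, the proliferation marker Ki-67, had 21.1, 1.33 and 2.78 FPKM against 8.35 and 7.65 FPKM. The last 3 genes had clones on both sides of the controls.

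Grouped by what their products do, the genes of all 8 role lists had a positive median upon *VEGFA-LNC* deletion. The lists hold 158 of the 261 genes, and the other 103 had a median of 0.37. Among cell division and DNA replication genes 16 of 21 were higher, with a median of 0.49, and 3 were called (*TACC2*, *MMS19* and *CACUL1*), where 6.13% of the stretch and 0.735% of all tested genes were. The most expressed, *BUB3* of the spindle checkpoint, had 115, 52.4 and 60.1 FPKM against 65.3 and 66.6 FPKM, and *BCCIP*, a partner of BRCA2, had a log2 FC of -0.06 (SE 0.25). *SMC3*, a cohesin subunit, had 34.8, 20.7 and 22.0 FPKM against 17.6 and 14.1 FPKM. Clone 1 was the highest in all 3 of these, and it was also the highest for *KIF11* (25.7, 2.66 and 4.62 FPKM against 7.92 and 8.01 FPKM) and *CEP55* (40.5, 4.68 and 7.88 FPKM against 14.8 and 14.1 FPKM), which act in mitosis and cytokinesis. Clones 2 and 3 were below the controls in *KIF11*, *CEP55* and *MKI67* while their list as a whole was above, with clone medians of 0.83, 0.50 and 0.48.

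Mitochondrial proteins were higher in 22 of 25 genes (median 0.30). *ATP5MD*, a subunit of ATP synthase, had 117, 105 and 119 FPKM against 79.5 and 84.5 FPKM, *NDUFB8* of complex I had 102, 66.9 and 77.8 FPKM against 63.9 and 54.9 FPKM, and *VDAC2*, which lies among the first 17 genes, was lower. Genes of NF-κB and ubiquitin signalling were higher in 10 of 11 (median 0.46). Besides *TRIM8*, *CUEDC2*, which binds IκB kinase, had 20.9, 33.3 and 38.0 FPKM against 18.5 and 16.7 FPKM, and *UBTD1* had 14.8, 37.2 and 28.7 FPKM against 14.4 and 16.6 FPKM. *NFKB2* was the exception. Lipid and intermediary metabolism genes were higher in 14 of 18 (median 0.37). *SCD*, the stearoyl-CoA desaturase that makes monounsaturated fatty acids, had 88.6, 52.6 and 50.7 FPKM against 32.9 and 32.9 FPKM. *GSTO1*, a glutathione transferase, had 169, 239 and 225 FPKM against 158 and 165 FPKM, and the glycolytic enzyme *PGAM1* had a log2 FC of 0.23 (SE 0.21).

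Receptors, adhesion, matrix and cytoskeleton genes were higher in 16 of 22 (median 0.40), and here clone 1 differed least from the controls (clone medians 0.14, 0.83 and 0.55). *MMRN2*, an endothelial matrix protein that binds VEGF-A, had 28.1, 116 and 55.8 FPKM against 48.6 and 50.9 FPKM, on both sides of the controls, and *MYOF*, a membrane repair protein, had a log2 FC of 0.16 (SE 0.14). Secretory pathway and membrane traffic genes were higher in 18 of 23 (median 0.31), and the clones were alike (0.31, 0.41 and 0.35). *ACTR1A*, the dynactin filament subunit, had 51.9, 58.7 and 58.2 FPKM against 40.3 and 43.3 FPKM, *ANXA11*, an annexin, had a log2 FC of 0.26 (SE 0.13) and *BAG3*, a cochaperone, one of 0.06 (SE 0.22). Chromatin and transcription factor genes were higher in 13 of 17 (median 0.20). *LDB1*, a scaffold of LIM domain factors, had 20.9, 30.8 and 30.3 FPKM against 18.1 and 16.5 FPKM, while *HHEX*, a homeobox gene of endothelium and liver, had 22.4, 32.4 and 22.7 FPKM against 23.6 and 25.4 FPKM. The smallest median was that of RNA processing, transcription machinery and translation (0.09, 13 of 21 higher). Its most expressed genes were *RPS24*, a protein of the small ribosomal subunit, with 515, 325 and 426 FPKM against 427 and 355 FPKM, *EIF3A* (log2 FC 0.22, SE 0.16) and the nucleolar *NOLC1* (log2 FC 0.15, SE 0.35).

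**Figure D5:**
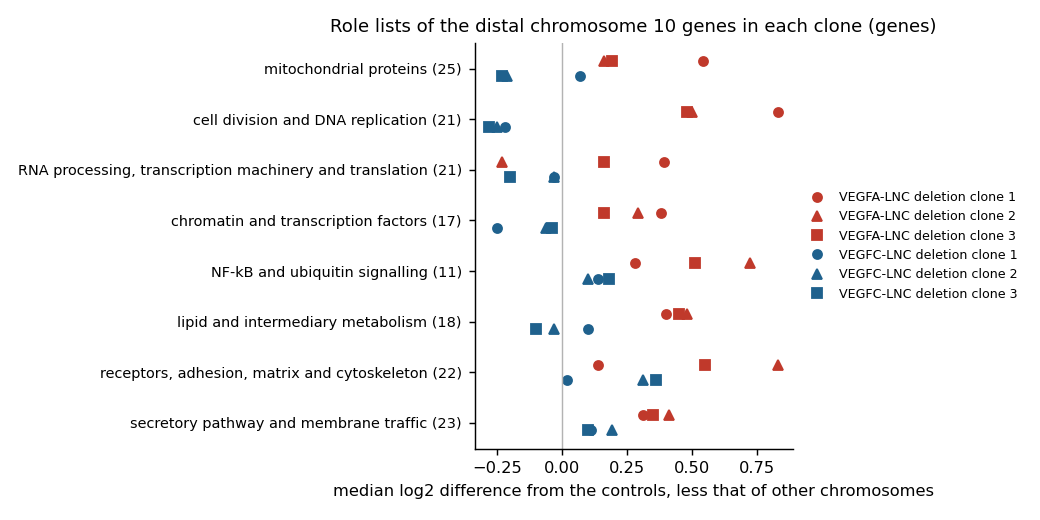
Median log2 difference from the controls, less that of other chromosomes, for the genes of each role list in each clone. Numbers in brackets are the genes measured. Red points (*VEGFA-LNC* deletion clones) lie above 0 apart from clone 2 in the list of RNA processing (-0.23), and clone 1 is highest for cell division (0.83) and lowest for receptors and adhesion (0.14).

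Upon *VEGFC-LNC* deletion, the genes of distal chromosome 10 lay close to genes elsewhere. The median log2 FC was -0.08 against -0.09 on other chromosomes, and 100 of the 261 genes (38.3%) were higher against 41.1%. The 3 clones lay above both controls in 43 genes (16.5%, against 17.2% of all tested genes) and below both in 85 genes (32.6%, against 30.6%). Called lower was 1 gene (0.383%, against 0.323%), and called higher were 0 genes (against 0.15%) by limma. At an unadjusted limma p under 0.05, 8 were higher and 30 lower. Of the 12815 genes elsewhere, 804 were higher and 1626 lower at that p. In single clones 5.75%, 8.43% and 8.81% of the genes were at least 1.5-fold above the controls, where 9.23%, 13.5% and 13.9% were elsewhere.

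The called gene was *ADIRF*, adipogenesis regulatory factor, on the plus strand from 88728188 to 88730666. It had 3.48, 4.14 and 3.78 FPKM in the *VEGFC-LNC* deletion clones and 9.95 and 11.0 FPKM in their controls. The log2 FC was -1.44 (SE 0.21, FDR 0.0269 by limma with Benjamini-Hochberg adjustment over 13333 genes), and the clones did not overlap with the controls. In the *VEGFA-LNC* set the clones, with 22.3, 16.6 and 14.5 FPKM, and the controls, with 22.0 and 16.1 FPKM, did overlap. The gene rested on 17 to 255 reads a library. Its call was lost without any 1 of the *VEGFC-LNC* libraries or of the *VEGFA-LNC* controls, with no filter on low values, with the control pairs averaged and with the replicate number as a block. Next to it in FDR among the genes named here, *PIK3AP1*, a signalling adaptor of PI3 kinase, had 0.093, 0.090 and 0.000 FPKM in the clones against 0.550 and 0.707 FPKM (FDR 0.0537 by limma), and *ABCC2*, an efflux transporter, had 0.874, 0.780 and 0.795 FPKM against 1.65 and 1.80 FPKM (FDR 0.057 by limma).

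Cell division genes had the lowest median of the role lists upon *VEGFC-LNC* deletion (-0.36), with 19 of 21 lower against 58.9% of genes elsewhere. In 12 of the 21 all clones lay below both controls, against the 30.6% of all tested genes, and 0 were called. *MKI67* had 11.0, 2.59 and 8.55 FPKM against 33.3 and 30.1 FPKM (log2 FC -2.32, SE 1.01, FDR 0.261 by limma). *KIF11* had 13.9, 4.24 and 8.13 FPKM against 22.4 and 23.3 FPKM (FDR 0.338 by limma). Every clone lay below both controls for both genes, but neither passed. The spread that enters each FDR was shared by all 4 groups, so that of the *VEGFA-LNC* clones counted as well. Receptor and adhesion genes had the highest median (0.21, 14 of 22 higher and 0 called). It included *ACTA2*, smooth muscle actin, with 1.21, 4.46 and 19.0 FPKM against 0.950 and 0.659 FPKM (FDR 0.267 by limma), and *FAS*, the death receptor, with 4.17, 4.94 and 9.61 FPKM against 1.78 and 1.59 FPKM (FDR 0.142 by limma). These genes are neighbours on opposite strands, and the use of strand in the deposited values is not given in the sources used here. The other lists had medians between -0.19 (mitochondrial proteins, 20 of 25 lower) and -0.01 (secretory pathway), with 0 called in each. *ADIRF* belongs to none of the lists.

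The 2 control sets, neither of which carries a deletion, also differed from each other in single genes of the arm while its median did not move. The median log2 FC of the *VEGFC-LNC* controls against the *VEGFA-LNC* controls was -0.10 in the stretch and -0.11 on other chromosomes. Called higher were 12 genes (4.60%, against 2.92% of all tested genes) and called lower 29 genes (11.1%, against 9.76%). Over all genes the split of higher and lower calls was 389 to 1301 and became 587 to 906 with median of ratios scaling, where the split of the stretch was 14 to 24. *SCD* (log2 FC 2.29, SE 0.36) and its neighbour *OLMALINC* (2.13, SE 0.33) were the highest of the genes named here. *SCD* had 161 and 162 FPKM in the *VEGFC-LNC* controls against the 32.9 and 32.9 FPKM given above. *ACTA2* was the lowest, with 0.950 and 0.659 FPKM against 19.8 and 19.5 FPKM (log2 FC -4.47, SE 1.19). *FAS* (-2.14), *NFKB2* (-2.03, with 5.88 and 4.64 FPKM) and *PPP1R3C* (-2.01) were among the others called lower. *TSPAN14*, which was called higher between the control sets, had 34.4 and 35.3 FPKM in the *VEGFC-LNC* controls, about the 35.1 FPKM of *VEGFA-LNC* clone 1. *ZNF518A* and *DOCK1*, which were also called upon *VEGFA-LNC* deletion, were called higher between the control sets as well. Of the 16 genes called higher upon *VEGFA-LNC* deletion, 12 had a log2 FC above 0 between the control sets, against 42.1% of the stretch. In these 12 the *VEGFA-LNC* controls, which both comparisons share, were the lower set. The log2 FCs of the 16 lay between -0.19 and 0.89. The calls between the control sets rest on pairs that lie close together, and averaging each pair into 1 sample left 0.

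For the difference of the 2 effects, 3 genes of the stretch were called higher (1.15%, against 0.593% of all tested genes) and 0 called lower (against 0.863%). At an unadjusted limma p under 0.05, 5 were lower and 77 higher, where 1190 and 1158 of the 12815 genes elsewhere were. The median of that difference was 0.36 above that on other chromosomes. It contains the *VEGFA-LNC* effect that proposed the stretch, and the deletions have no library in common.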

How the data were processed

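RNA-Seq was carried out by the authors on 10 libraries of EA.hy926 clones. Per the labels, reads were trimmed with Trim Galore (version 0.4.4), aligned to GRCh37 with STAR (version 2.5.4b) and assigned by featureCounts. The authors deposited 1 table of FPKM values, with a length and hg19 position for each RefSeq transcript. Its making, and whether strand was used, are not given in the sources used here. Whole reads were recovered from FPKM and length, 100% of the checked values being within 0.1 read of a whole number.

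For each symbol the transcript with the highest mean was kept. The 13333 genes were fitted as log2(FPKM + 0.1) with limma 3.58.1 in R 4.3.3, in a design of 4 groups, with FDRs over all genes. Each gene had a single estimate of the spread, shared by all groups. The prior and residual degrees of freedom were 2.8 and 6. The procedure was run on simulated counts with 200 of the 13333 genes changed 8-fold in the *VEGFC-LNC* deletion. It recovered 176 of them and called 13 unchanged genes. Each gene had the same spread in all groups there, unlike in the libraries, and smaller changes were not simulated. No count model was run on the recovered reads. The genes, role lists and tests were chosen with earlier results of these data known. Genes were named by a rule: the 3 most expressed of each role list, the 8 highest and 8 lowest upon *VEGFA-LNC* deletion with a mean of at least 1 FPKM, those called upon *VEGFC-LNC* deletion, the 5 on either side of the start and those named in the study's RNA-Seq results. *KIF11*, *CEP55*, *ACTA2*, *FAS*, *OLMALINC*, the other *NUTM2* genes, *PIK3AP1*, *ABCC2* and the other genes called upon *VEGFA-LNC* deletion were named after their values were seen. A gene that the rule names is not reported here. The clones are separate lines, but the sources used here do not say so of the 2 controls of a set, whose spread may be technical. The 2 controls of a set differed by more than counting noise and were counted separately. Same-numbered clones of the 2 deletions deviated together from their group means (correlations across genes of 0.55, 0.41 and 0.22), whereas clones and controls of the same number did not (-0.04 to 0.05), and no label says what the numbers share.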

Additional observations from a re-analysis of the deposited data

Results flagged for a closer look

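For 3 genes of distal chromosome 10 the contrast of one deletion's effect with the other's was called in limma (FDR under 0.05, FC of 1.5 or more). Each was higher in all 3 *VEGFA-LNC* deletion clones than in both controls and lower in all 3 *VEGFC-LNC* deletion clones than in both of theirs. Because the *VEGFA-LNC* effect was used to propose the stretch, the difference contains values that chose the genes. These calls are a description, with no test behind them. The *VEGFC-LNC* values had no part in proposing the stretch. They do enter the difference that flagged these 3 genes, so they are no independent support for it. The fit also shares its spread over all groups.

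*PIK3AP1*, an adaptor of PI3 kinase, had the largest difference among them, a log2 value of 3.01 (SE 0.55). It had 1.02, 0.532 and 1.08 FPKM in the *VEGFA-LNC* clones against 0.420 and 0.481 FPKM, and 0 to 90 reads a library, so that its fold depends on the added 0.1. *ABCC2*, an efflux transporter, differed by 1.54 (SE 0.25), with log2 FCs of 0.55 and -1.0. *ZNF518A*, a zinc finger gene, differed by 1.29 (SE 0.20), with 6.16, 5.42 and 6.21 FPKM against 3.22 and 3.35 FPKM in the *VEGFA-LNC* set and 4.24, 3.70 and 4.28 FPKM against 5.61 and 5.62 FPKM in the *VEGFC-LNC* set. The *VEGFC-LNC* controls were above the *VEGFA-LNC* controls in each of these genes. That log2 FC was 0.76 (SE 0.15) for *ZNF518A*, which was called between the control sets. It was 0.46 for *ABCC2* and 0.40 for *PIK3AP1*, which were not called there. With the replicate number as a block 0 genes of the stretch passed. The number was 0 without *VEGFA-LNC* clone 3 or without any 1 of the 4 controls, 1 without *VEGFC-LNC* clone 2, 5 without *VEGFC-LNC* clone 1 and 31 without *VEGFA-LNC* clone 1.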

How the results depend on the processing

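The distance of the stretch from other chromosomes upon *VEGFA-LNC* deletion was positive under every alternative run, and the counts of called genes were far less steady. That distance, 0.38 on the log2 scale, was 0.34 to 0.39 with single libraries left out, 0.32 with a pseudocount of 1, 0.01 with no filter on low values, where genes at or near 0 enter the median, and 0.40 for the genes beyond *NUTM2B-AS1*, an alternative added after seeing the data. For the difference of the effects the distance, 0.36 as reported, was 0.32 to 0.39 with single libraries left out, 0.32 with a pseudocount of 1 and 0.09 with no filter, and between the control sets it was 0.01 to 0.02 with single libraries left out and -0.05 with no filter. The relative level of the 3 clones above the other 7 libraries, 0.38 as reported, was 0.32 with a pseudocount of 1 and 0.01 over the genes up to *NUTM2B-AS1*. Leaving out single libraries gave 0 to 54 genes called higher and 0 to 5 called lower upon *VEGFA-LNC* deletion, 0 to 4 and 0 to 10 upon *VEGFC-LNC* deletion, 0 to 21 and 0 to 45 between the control sets, and 0 to 31 and 0 to 2 for the difference of the effects. Every one of these highest counts came without *VEGFA-LNC* clone 1. With the control pairs averaged, called genes numbered 0 in each of these. With the replicate block, 6 were higher upon *VEGFA-LNC* deletion, 0 lower upon *VEGFC-LNC* deletion and 0 higher for the difference of the effects, and no other count moved by over 1.5 times. The block was fitted over all 10 libraries and so also tied controls to clones of the same number. Those did not deviate together (correlations of -0.04 to 0.05), whereas same-numbered clones of the 2 deletions did (0.22 to 0.55). With a pseudocount of 1, 3 genes were called lower upon *VEGFA-LNC* deletion. With no filter, 1 was lower upon *VEGFA-LNC* deletion, 0 lower upon *VEGFC-LNC* deletion, 7 higher between the control sets and 8 higher for the difference. The cause of these changes was not tested. Median of ratios scaling moved the median of all genes by at most 0.10.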
